A study of Mus musculus and Homo sapiens with 60 samples.

Results

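The promoters of 6 genes known as direct targets of the transcription factor Myc, *NCL*, *NPM1*, *ODC1*, *CDK4*, *CAD* and *TERT*, were examined in P493-6, a human B-cell line whose Myc transgene is repressed by tetracycline. Each promoter was taken as the window of 2.5 kb on either side of 1 start site on hg19, and every deposited peak with a base in that window was counted. The 6 windows held 60 of the 185318 peaks in the 9 P493-6 lists, out of 1483531 peaks in the 53 peak lists of the whole series of 60 samples. The genes were chosen as textbook targets and not by a cut on the values given here, though with earlier results of these data known.

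Chromatin immunoprecipitation followed by sequencing was used to map Myc in 5 conditions. For the time course, cells were held in 0.2 µg/mL tetracycline with the transgene off (0 h), or kept in it for 72 h and then given medium without it for 1 h or 24 h. For the Myc level, cells with low Myc kept the same tetracycline and received 200 nM 4-hydroxytamoxifen (OHT), which activates the endogenous gene. Cells with high Myc were untreated and expressed the transgene. The levels thus differ in OHT and tetracycline as well as in Myc, and their parts cannot be told apart here. RNA polymerase II (RNAPII) was mapped at 24 h and 0 h, and the histone marks H3K4me3 and H3K27ac at 24 h. All samples are the same cell line with the same transgene, and each condition and antibody had 1 library, so no difference below has a replicate check and no test was made.

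Myc binds DNA with its partner Max, preferentially at E-box sequences, and it is found mainly at promoters that are already open. Its classic targets serve cell growth and division: ribosome assembly, polyamine and nucleotide synthesis, the cell cycle and telomere upkeep. H3K4me3 marks active or poised promoters, H3K27ac marks active promoters and enhancers, and RNAPII at a start site marks loaded or transcribing polymerase.

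Peak lists differed greatly in length. Myc peaks numbered 791 at 0 h, 8666 at 1 h, 18257 at 24 h, 4309 at low Myc and 26146 at high Myc. RNAPII had 24613 peaks at 24 h and 13026 at 0 h, H3K4me3 had 29953 and H3K27ac had 59557. Read depth is not known from peak lists, and a peak scoring under about 80 (the lowest score in any of these lists was 80.01) is not listed, so a missing peak is not an absence of binding. Each score is the authors' own value on the scale of -10 log10 of the peak caller's p-value. It is given here as a rank and percentile within its own list, since scores of separately called lists do not show a change. The percentile is the share of that list scoring lower, with ties placed at their middle rank.

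Myc peaks were found at 5 of the 6 promoters within 1 h of release, and at *TERT* only at high Myc. A Myc peak lay in the window of 2 of the 6 genes at 0 h (*NCL* and *NPM1*), of 5 at 1 h, of 5 at 24 h, of 5 at low Myc and of all 6 at high Myc. The gene without a peak at 1 h, 24 h and low Myc was *TERT* each time. As background, the share of all 29953 H3K4me3 regions of 24 h that overlapped a Myc peak was 1.32% at 0 h (exact 95% binomial interval 1.19 to 1.45), 21.2% at 1 h (20.8 to 21.7), 38.1% at 24 h (37.5 to 38.7), 9.93% at low Myc (9.59 to 10.3) and 48.5% at high Myc (48.0 to 49.1). These intervals cover counting error only. On this overlap rule the members' counts were the same as by the window.

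These regions vary widely in score, and 9819 of them (32.8%) reached 3100 or more, a value at which scores pile up. An H3K4me3 region of that kind lay at 5 of the 6 genes, all but *TERT*. Among such regions, Myc overlapped 3.31% at 0 h, 45.3% at 1 h, 69.5% at 24 h, 21.6% at low Myc and 86.3% at high Myc. The 5 genes with such a region all had a Myc peak at 1 h, 24 h, low and high Myc, and 2 of them at 0 h. Set against these regions, their counts at 24 h and high Myc lie nearest to the background. The counts at 1 h, at low Myc and at 0 h lie farther above it. Such small counts have no test here.

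**Figure D1:**
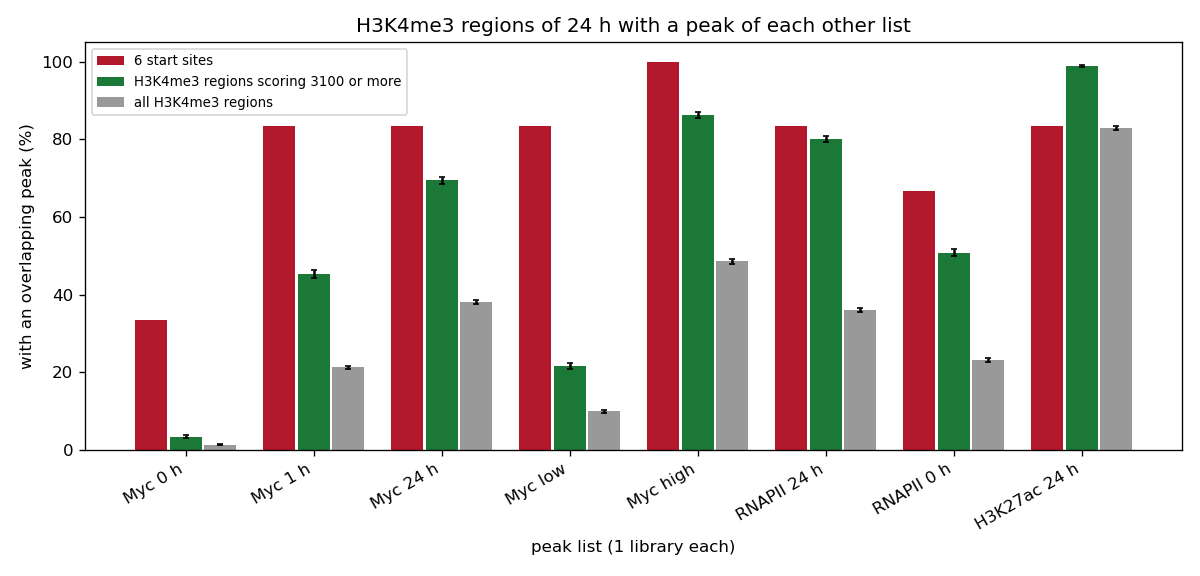
Share of regions with an overlapping peak (vertical axis, %) for each other P493-6 list (horizontal axis), for the H3K4me3 regions at the 6 start sites (red), for H3K4me3 regions scoring 3100 or more (green, 9819 regions) and for all H3K4me3 regions (grey, 29953 regions). Black bars are exact 95% binomial intervals. The red bars stand for counts out of 6, which include *TERT* although its region scored under 3100, and the widest gap between red and green is at low Myc.

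*NCL*, which encodes nucleolin, a protein of the nucleolus that acts in ribosomal RNA synthesis and processing, carried the highest-scoring Myc peak of the 6 genes in every Myc list. At 0 h its peak scored 194.4 and ranked 214 of 791. At 1 h it scored 2685.09 and ranked 5 of 8666, at 24 h 2766.39 and 14 of 18257, and at low Myc 1158.67 and 12 of 4309. At high Myc it scored 3100, a tied score covering ranks 14 to 79 of 26146. Outside the tetracycline-treated 0 h cells, *NCL* was therefore among the strongest Myc peaks of the genome in each list.

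The *NCL* peak was centred downstream of the start site and was wider in each of the other lists than at 0 h. It lay wholly inside the gene at 0 h and low Myc, and covered the start site at 1 h, 24 h and high Myc. Distances here run in the direction of transcription, with the strand of each gene taken from general knowledge. At 0 h the peak was 376 bp wide, from 419 to 794 bp downstream (chr2:232328411-232328786), and all 5 Myc peaks at *NCL* contained that stretch. Its width was 1243 bp at 1 h, 1396 bp at 24 h, 816 bp at low Myc and 2342 bp at high Myc. At 24 h a separate weak peak lay upstream, from -916 to -331 bp, with a score of 121.43. The high Myc peak ran from -1098 to 1243 bp and covered both places.

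*NPM1*, which encodes nucleophosmin, a nucleolar chaperone of histones and of ribosome assembly, was the other gene with a Myc peak at 0 h. That peak scored only 92.91, close to the lowest score listed, and ranked 650 of 791. It was 238 bp wide and lay 772 to 1009 bp downstream of the start site (chr5:170815480-170815717). The 0 h call at *NPM1* is thus a weak one within its list, unlike the later ones. Of all 791 Myc peaks at 0 h, 53.6% overlapped an H3K4me3 region of 24 h. In the other Myc lists this share ran from 70.2% at high Myc to 84.2% at 1 h.

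At the same place the *NPM1* peak ranked 606 of 8666 at 1 h, 427 of 18257 at 24 h, 116 of 4309 at low Myc and 572 of 26146 at high Myc. Its centre moved little, between 812.5 and 890.5 bp downstream over the 5 lists. A second Myc peak over the start site itself appeared at 24 h, from -447 to 371 bp with a score of 213.66, and at high Myc, from -410 to 356 bp with a score of 528.89. Both nucleolar genes thus had a main Myc peak centred downstream of the start site in all 5 lists. A Myc peak covered the start site at 24 h and high Myc in both, and at 1 h in *NCL*. A downstream centre was not particular to these genes. The main peak of *CAD* was centred downstream in its 4 lists, and that of *CDK4* at 24 h, low and high Myc. At high Myc the centre lay 72.5 bp downstream at *NCL*, 140 bp at *CAD* and 205 bp at *CDK4*.

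*ODC1* encodes ornithine decarboxylase, the first enzyme of polyamine synthesis. It had no Myc peak at 0 h, where the nearest one lay 241.293 kb away. Its main peak ranked 1103 of 8666 at 1 h, 816 of 18257 at 24 h, 604 of 4309 at low Myc and 1108 of 26146 at high Myc. Its width was 576 bp at 1 h, 810 bp at 24 h, 495 bp at low Myc and 856 bp at high Myc. In contrast to *NCL* and *NPM1*, this peak lay upstream of the start site used here, with a stretch common to the 4 lists from -653 to -159 bp (chr2:10588789-10589283).

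A weaker peak on the other side of the *ODC1* start site was listed at 24 h, from 407 to 740 bp downstream with a score of 84.59, and at high Myc, from 260 to 837 bp with a score of 123.66. These ranked in the lowest parts of their lists, at the 5.95 and 22.3 percentiles. No Myc peak in any list covered the *ODC1* start site itself.

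*CAD*, which encodes the enzyme with the first steps of pyrimidine synthesis, had the lowest-scoring Myc peak of the 5 early-bound genes at 24 h and at low Myc. It ranked 1609 of 8666 at 1 h, 3277 of 18257 at 24 h, 1124 of 4309 at low Myc and 852 of 26146 at high Myc. As percentiles these are 81.4 at 1 h, 82.1 at 24 h, 73.9 at low Myc and 96.7 at high Myc. The peak covered the start site in all 4 lists, and its centre stayed between 94.5 and 163.5 bp downstream. Its width was 565 bp at 1 h, 730 bp at 24 h, 454 bp at low Myc and 1069 bp at high Myc.

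*CDK4* encodes a kinase that drives cells through G1. Its Myc peak was the lowest of the 5 genes at 1 h, at rank 2040 to 2044 of 8666, and second only to *NCL* at 24 h, at rank 248 to 249 of 18257, and at high Myc, at 497 of 26146. At low Myc it ranked 266 of 4309. The width was 532 bp at 1 h, 1097 bp at 24 h, 864 bp at low Myc and 1233 bp at high Myc, and this peak covered the start site each time. Another, weaker high Myc peak lay upstream, from -2658 to -2071 bp, with a score of 210.06. The order of *CDK4* among the members thus differed between 1 h and the other lists, and no replicate shows whether that order is stable.

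*TERT*, the gene for the catalytic subunit of telomerase, stood apart from the other 5. It had no Myc peak in its window at 0 h, 1 h, 24 h or low Myc. The nearest peak lay 8955.2 kb away at 0 h, 183.826 kb at 1 h, 17.821 kb at 24 h and 160.22 kb at low Myc. At high Myc a peak of 1470 bp covered the start site, from -676 to 793 bp (chr5:1294369-1295838), with a score of 984.37 and rank 2360 of 26146, the 91.0 percentile. A second, weak high Myc peak from -2587 to -2210 bp scored 131.81.

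**Figure D2:**
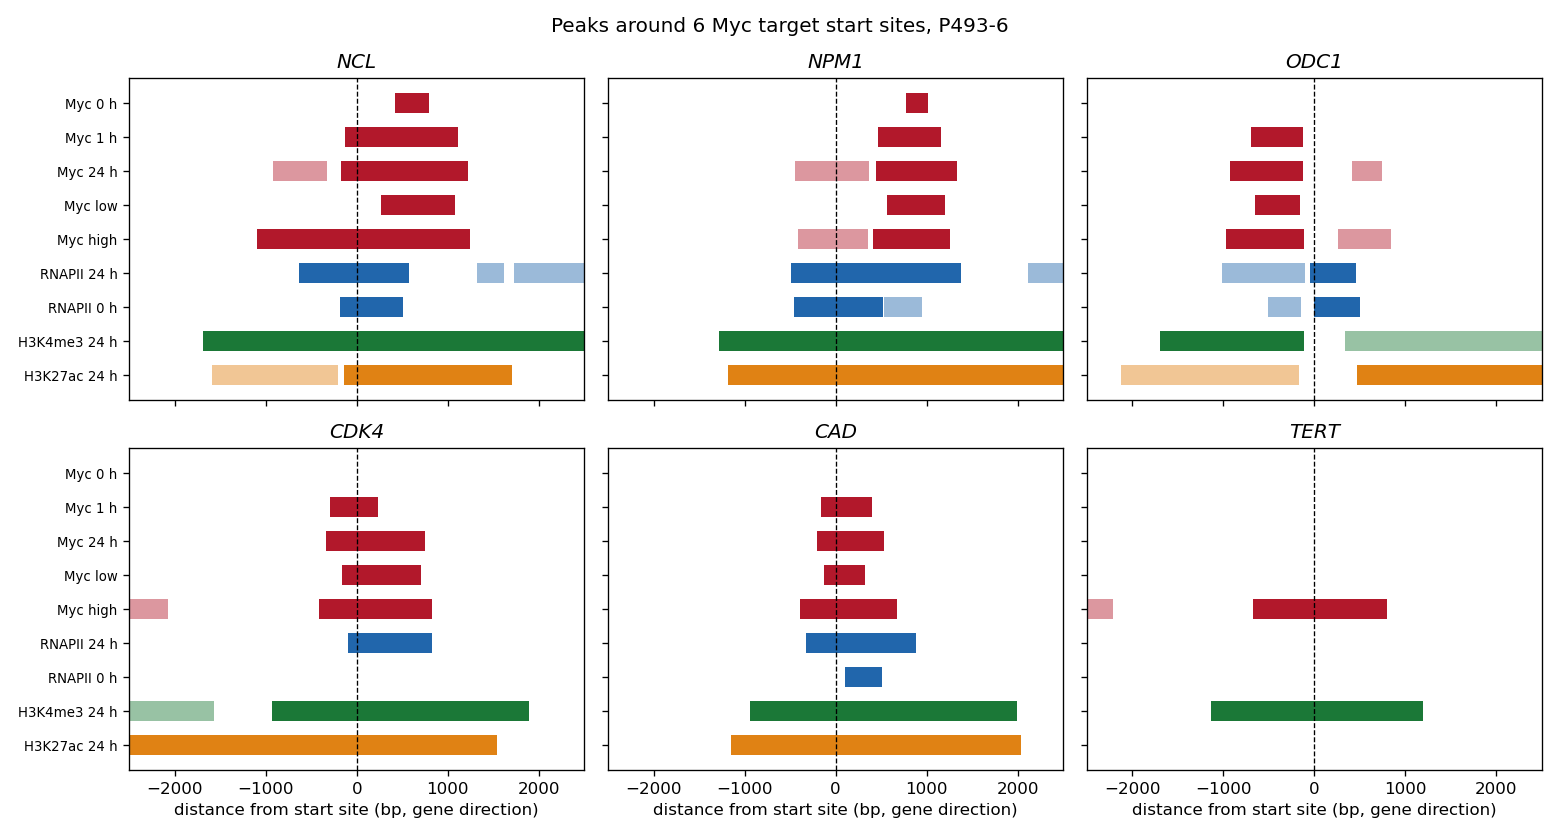
Peaks of the 9 lists (rows) around each start site (dashed line); the horizontal axis is the distance from the start site in bp in the gene's direction, cut at the window of 2.5 kb. Solid bars are the highest-scoring peak of a list in the window and pale bars its other peaks; colours mark Myc (red), RNAPII (blue), H3K4me3 (green) and H3K27ac (orange). *TERT* shows only high Myc and H3K4me3.

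Across the members, narrower Myc peaks mostly lay within the wider ones of other lists. At all 5 genes bound at 1 h, the 1 h peak lay 100% within the 24 h peak, and the low Myc peak lay 100% within the high Myc peak. How often peaks nest in this way at all other sites was not counted, so the nesting cannot be called particular to the members. The 24 h peak lay 100% within the high Myc peak at *NCL*, *ODC1*, *CDK4* and *CAD*, and 92.1% within it at *NPM1*, whose peak was narrower at high Myc (853 bp) than at 24 h (883 bp). The centre of the main peak ranged over 602 bp at *NCL*, 301 bp at *CDK4*, 135.5 bp at *ODC1*, 78 bp at *NPM1* and 69 bp at *CAD*. Every main Myc peak at 1 h, 24 h, low and high Myc was wider than its list's median, which was 463 bp at 1 h, 471 bp at 24 h, 361 bp at low Myc and 587 bp at high Myc. At 0 h, where the median was 285 bp, *NCL* was wider and *NPM1* narrower.

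**Figure D3:**
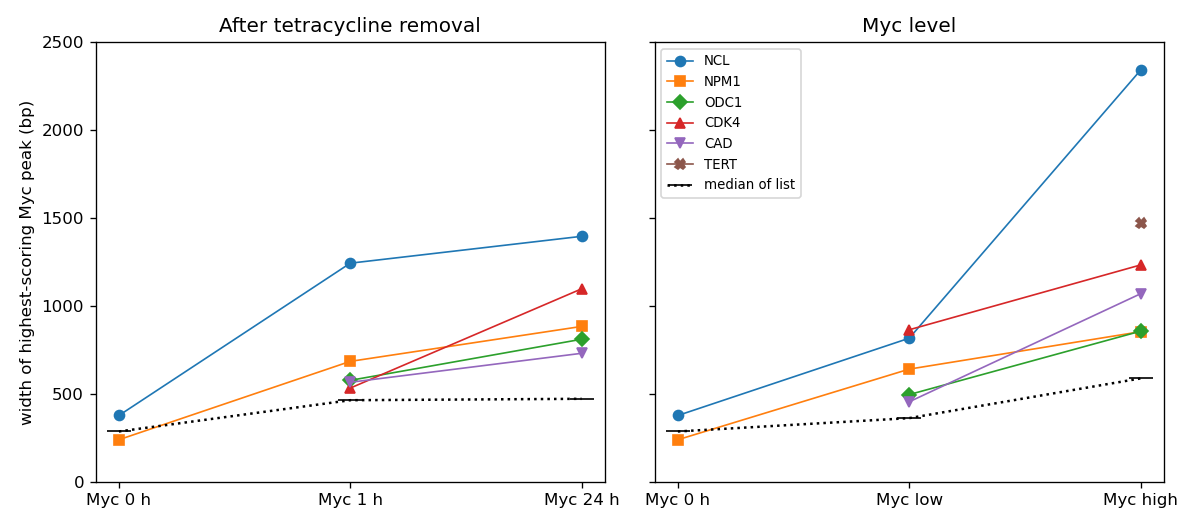
Width in bp of the highest-scoring Myc peak at each start site (vertical axis) over time after tetracycline removal (left) and over Myc level (right), with the median width of all peaks of each list as a dotted line. Each point is 1 library; *NCL* is the widest at 1 h, 24 h and high Myc, and *TERT* has a point at high Myc only.

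By score, the members with a peak at 1 h, 24 h, low and high Myc ranked high among all Myc-bound H3K4me3 regions as well. Over all H3K4me3 regions with a Myc peak, the highest peak per region had a median percentile of 56.5 at 1 h, 61.4 at 24 h, 55.2 at low Myc and 65.1 at high Myc. All 5 members with a peak exceeded it at 1 h, 24 h and low Myc, as did all 6 at high Myc. At 0 h the median was 45.1, with *NCL* at 73.0 and *NPM1* at 17.9. Within the 791 highest-scoring peaks of each list, the number that the 0 h list holds, 2 genes had a peak at 1 h (*NCL* and *NPM1*), 3 at 24 h (with *CDK4*), 4 at low Myc (with *ODC1* and *CDK4*) and 3 at high Myc (with *CDK4*). These peaks overlapped 2.46% of all H3K4me3 regions at 1 h, 2.49% at 24 h, 2.14% at low Myc and 2.52% at high Myc.

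**Figure D4:**
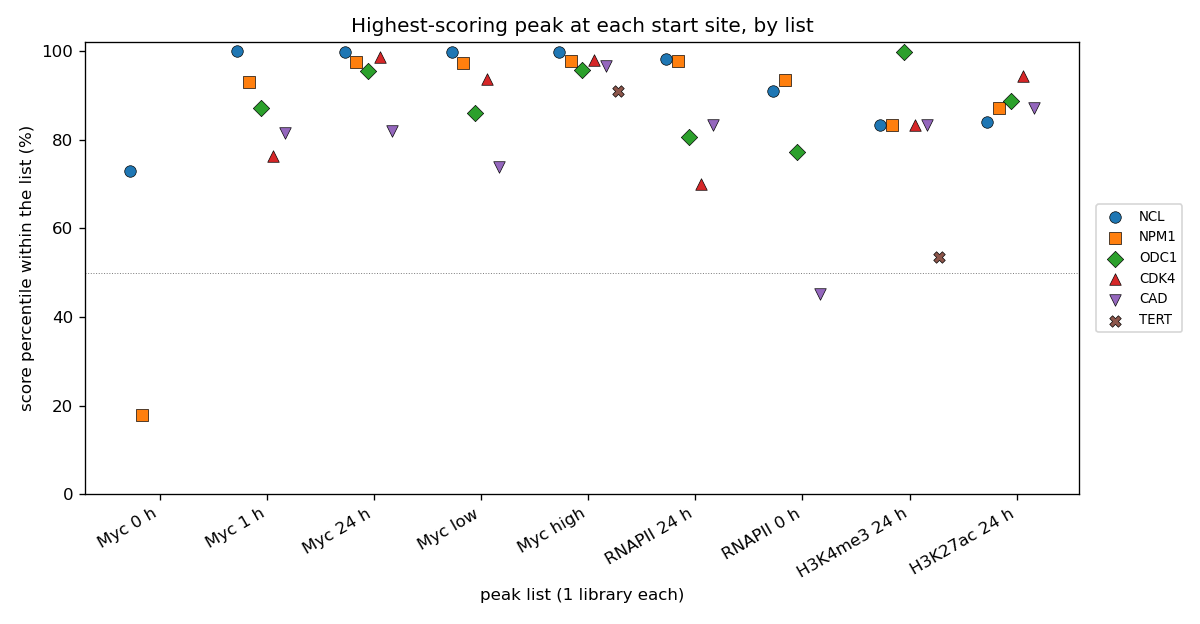
Percentile of the highest-scoring peak at each start site within its own list (vertical axis, %), for the 9 lists (horizontal axis, 1 library each); the dotted line is the median of a list. At 1 h, 24 h, low and high Myc every member with a peak lies above 73%, and at 0 h *NCL* is at 73.0% and *NPM1* at 17.9%.

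By the first list with a Myc peak, 2 genes had a peak already at 0 h, that of *NPM1* being weak. Another 3 had one first at 1 h (*ODC1*, *CDK4* and *CAD*), and *TERT* at no time of the course. Over all H3K4me3 regions the shares were 1.32% first at 0 h, 20.0% first at 1 h, 18.4% first at 24 h and 60.3% at none of the 3 times. Over regions scoring 3100 or more they were 3.31%, 42.0%, 26.4% and 28.2% in the same order. *TERT* has no such region, and 3 of the other 5 genes first at 1 h is not far from that background. Over the level series, the same 3 genes appeared first at low Myc and *TERT* first at high Myc, against 8.84% and 38.5% of all regions and 18.7% and 64.3% of those scoring 3100 or more. The 5 genes bound at 1 h were also the 5 bound at low Myc. Of H3K4me3 regions bound at low Myc, 83.4% were bound at 1 h, and of those bound at 1 h, 39.0% were bound at low Myc.

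RNAPII was compared between 24 h and 0 h of release. It had a peak in the window of 5 of the 6 genes at 24 h, and of 4 at 0 h. The gene with a peak at 24 h alone was *CDK4*, and *TERT* had none at either time. Over all H3K4me3 regions, RNAPII overlapped 36.1% at 24 h (exact 95% interval 35.5 to 36.6) and 23.2% at 0 h (22.7 to 23.6). Over regions scoring 3100 or more the shares were 80.0% at 24 h and 50.8% at 0 h. Of the 5 genes with such a region (*TERT* has none), 5 had RNAPII at 24 h and 4 at 0 h. Both counts lie somewhat above these shares, and such small counts were not tested.

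At *NCL* the RNAPII peak over the start site was 1203 bp wide and ranked 446 of 24613 at 24 h, against 698 bp and 1159 of 13026 at 0 h. At 24 h *NCL* had another 2 RNAPII peaks farther into the gene, from 1316 to 1622 bp and from 1733 to 2980 bp. At *NPM1* the peak was 1866 bp wide and ranked 539 of 24613 at 24 h, against 986 bp and 832 of 13026 at 0 h. The second *NPM1* peak at 24 h ran 2117 to 4867 bp into the gene, whereas the second at 0 h lay between 536 and 945 bp, a stretch that the main 24 h peak covers. Among peaks with a base in the window, RNAPII at both nucleolar genes thus reached farther into the gene at 24 h than at 0 h. The same held at *CAD*, with a reach of 879 bp at 24 h and 512 bp at 0 h. At *ODC1* the reach was 458 bp at 24 h and 500 bp at 0 h. Peaks lying wholly beyond 2.5 kb were not examined at either time. The 24 h list is also longer, and the part of list length in the difference was not tested.

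At *CAD* the RNAPII peak was 1201 bp wide and covered the start site at 24 h (rank 4103 to 4104 of 24613, the 83.3 percentile). At 0 h it was 407 bp wide, started 106 bp downstream and ranked 7133 of 13026, the 45.2 percentile. At *ODC1* the peak over the start site was 508 bp wide at 24 h and 503 bp at 0 h, with percentiles of 80.7 and 77.4. The upstream *ODC1* peak, where Myc lay, was 917 bp wide at 24 h with a score of 473.32, and 373 bp wide at 0 h with a score of 117.09. The wider RNAPII peak of 24 h at *ODC1* was therefore the upstream one, and not that over the start site.

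*CDK4* had a RNAPII peak of 923 bp over the start site at 24 h, with a score of 343.59 and rank 7356 to 7357 of 24613, and its nearest peak at 0 h lay 28.22 kb downstream. *TERT* had its nearest RNAPII peak 21.276 kb upstream at 24 h and 50.05 kb upstream at 0 h. RNAPII at 24 h and not at 0 h, the pattern of *CDK4*, was found at 14.9% of all H3K4me3 regions and 30.3% of those scoring 3100 or more. Of the regions bound by Myc at low Myc, as *CDK4* was, 53.3% had RNAPII at 0 h.

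H3K4me3 at 24 h was present in the window of all 6 genes. At *NCL* the region was 4987 bp wide, at *NPM1* 6099 bp, at *CDK4* 2828 bp and at *CAD* 2932 bp, each with a score of 3100. *CDK4* also had a weaker region of 1165 bp, from -2735 to -1571 bp, with a score of 427.12. Regions of this mark extended 3294 bp into *NCL*, 4812 bp into *NPM1* and 4030 bp into *ODC1*. The reach was 1894 bp at *CDK4*, 1989 bp at *CAD* and 1189 bp at *TERT*. *ODC1* had 2 regions, of 1586 bp upstream and 3700 bp downstream, with a gap of 447 bp between them (chr2:10588300-10588746) that held the start site and most of the RNAPII peak over it. *TERT* had a region of 2325 bp over the start site with a score of 827.12, the 53.6 percentile, the lowest of the 6.

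H3K27ac at 24 h was present at 5 of the 6 genes, against 83.0% of all H3K4me3 regions (exact 95% interval 82.5 to 83.4) and 99.0% of those scoring 3100 or more. A count of 5 of 6 thus lies near the share of all regions. The 5 genes with a region scoring 3100 or more all had the mark, close to that share as well. The main H3K27ac peak was 1842 bp wide at *NCL*, 4640 bp at *NPM1*, 3739 bp at *ODC1*, 4059 bp at *CDK4* and 3182 bp at *CAD*. These peaks lay at percentiles of 84.1 to 94.4 by score and 55.6 to 88.1 by width, with *NCL* lowest by both (84.1 and 55.6). At *NCL* and *ODC1* it was split into 2 peaks by a gap upstream of or over the start site. The H3K27ac peak nearest to the *TERT* start site lay 48.784 kb upstream.

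At the 5 genes other than *TERT*, Myc peaks lay on RNAPII and both histone marks. At 24 h, the main Myc peak was covered 100% by H3K4me3 at all 5 genes and by H3K27ac at 97.1% of its bases at *NCL*, 94.2% at *ODC1* and 100% at the other 3. RNAPII covered 100% of it at *NPM1*, *ODC1* and *CAD*, 77.2% at *CDK4* and 53.6% at *NCL*. Of all 18257 Myc peaks at 24 h, 79.0% overlapped an H3K4me3 region. Over these 14414 peaks the median covered was 100% by H3K4me3, 65.6% by RNAPII and 100% by H3K27ac. The 5 genes thus equalled the H3K4me3 median, and *NCL* and *ODC1* lay below the H3K27ac median. At *NCL* the Myc peak ran past the RNAPII peak on the downstream side.

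The combinations of peaks sorted the genes into 4 patterns. *NCL* and *NPM1* had a peak in all 9 lists, as did 0.744% of all H3K4me3 regions and 2.13% of those scoring 3100 or more. *ODC1* and *CAD* had all but Myc at 0 h (3.94% of all regions and 10.6% of the high-scoring ones). *CDK4* lacked Myc and RNAPII at 0 h (1.97% and 4.88%). *TERT* had high Myc and H3K4me3 alone, a pattern of 315 regions (1.05%), of which 23 scored 3100 or more.

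For description, 2164 H3K4me3 regions had a high Myc peak scoring at least 984.37, the value at *TERT*. Of these, 8 had no Myc peak at 24 h, 6 had no H3K27ac, 274 had no RNAPII at 24 h, and 1, that of *TERT*, had none of the 3. The score limit and the absences were taken from *TERT* itself after its values were seen, so these counts restate its pattern and test nothing. The high Myc cells and the 24 h cells are separate libraries, and the marks of the high Myc cells were not analysed here.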

How the data were processed

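The submitters' processing notes name BWA 0.6.2 (an aligner), SAMtools, MACS 1.4.1 (a peak caller) and, for these cells, hg19; settings are not given in the sources used here. Each of the 9 P493-6 samples had its own list, so peaks were called per library. The deposited lists give a score per peak, which per its range is -10 log10 of the MACS p-value. The high Myc sample is noted as mm9, yet its highest end on chromosome 1 was 249219825, close to that of the other human lists, so hg19 was used. The series' design text names an input from another series for the lists of Myc and of RNAPII.

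Start sites were given with the gene names. Peaks with a base within 2.5 kb counted, and the highest-scoring one was described. Percentiles give ties their middle rank. Overlap meant 1 bp or more, and shares have exact (Clopper-Pearson) 95% binomial intervals. The rule named all 6 genes. Members, lists and rules were chosen with earlier results of these data known. The backgrounds of H3K4me3 regions scoring 3100 or more and of peaks within 2.5 kb of a region centre were added after seeing the data. No human annotation or sequence was used here, so promoter motifs, other Myc targets and B-cell markers were not analysed here. Mouse lists served only to count peaks.

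Overlaps found every simulated peak on 29953 regions (error of 0 regions) and equalled those of bedtools 2.31.1 in 8 of 8 lists. Python 3.11.15, numpy 2.4.6, scipy 1.17.1 and matplotlib 3.10.9 were used. Precision is limited by 1 library per condition, and read depth per sample is unknown.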

Additional observations from a re-analysis of the deposited data

How the results depend on the processing

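No paired analysis was possible because each P493-6 condition has 1 library, and for the same reason no library could be left out. The number of start sites with a peak was the same in all 9 lists with windows of 1 kb or 5 kb and with peaks set to 500 bp. When a peak had to cover the start site, the number was lower in 8 of the 9 lists. For Myc it was 0 at 0 h, 3 at 1 h, 4 at 24 h, 2 at low Myc and 5 at high Myc. It was 3 for RNAPII at 0 h, 5 for H3K4me3 and 4 for H3K27ac. With peaks at or above the list's median score it was 1 for Myc at 0 h and 3 for RNAPII at 0 h. With equal numbers of highest-scoring peaks (791 per Myc list) the Myc number was 2 at 1 h, 3 at 24 h, 4 at low Myc and 3 at high Myc. Fewer peaks alone can set that limit. Score percentiles used the highest peak; the nearest peak gave lower values in 3 of 43 cases, the largest drops being *NPM1* at 24 h (62.2) and high Myc (77.8). By width, 34 of 43 percentiles were lower and 9 higher.

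The background shares moved with the regions and peaks used. Order of values is Myc at 0 h, 1 h, 24 h, low and high, then RNAPII at 24 h and 0 h, then H3K27ac. Regions with RNAPII at 24 h gave 3.25%, 46.3%, 71.8%, 21.6% and 84.9% for Myc, 58.6% for RNAPII at 0 h and 98.5% for H3K27ac. Regions scoring 3100 or more gave 3.31%, 45.3%, 69.5%, 21.6%, 86.3%, 80.0%, 50.8% and 99.0%. Peaks at or above the median score gave 0.591%, 12.0%, 23.4%, 5.49%, 31.9%, 26.4%, 14.9% and 70.0%. Equal numbers of peaks gave 2.46% at 1 h, 2.49% at 24 h, 2.14% at low Myc, 2.52% at high Myc and 27.3% for RNAPII at 24 h. Peaks within 2.5 kb of a region's centre gave 23.1% at 1 h, 42.1% at 24 h, 10.9% at low Myc, 53.9% at high Myc, 39.7% and 25.4% for RNAPII at 24 h and 0 h, and 85.8% for H3K27ac. An overlap of 50% of the peak gave 47.8% at high Myc, 35.3% for RNAPII at 24 h and 50.5% for H3K27ac.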
